A study of Homo sapiens with 9 samples.

Results

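MicroRNA host genes are transcripts from which microRNAs are cut, and 9 of them were followed here in MDA-MB435S cells with an empty vector (EV), with wild-type WWOX, or with the WWOX-WFPA mutant (WFPA). The hosts were MIR31HG, MIR503HG, MIR155HG, MIR22HG, MIR17HG, MIR100HG, MIR99AHG, MCM7 and CLCN5. They are the genes that carry microRNAs the study took up (miR-31, miR-503, miR-106b, miR-188-3p and miR-362-3p), with further well-known hosts beside them. They were read by 20 of the 54613 probe sets tested, where a probe set is a group of array probes for a transcript. Of these, 14 probe sets were annotated to 1 host alone and covered 6 of the 9 hosts. The other 6 were annotated jointly to a host and to microRNAs inside or across the end of it. MIR503HG, MIR155HG and MIR22HG were read only by such joint probe sets, so that a value there belongs to the annotated locus and not to the host transcript alone.

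A microRNA is first part of a longer transcript, from which the enzyme DROSHA cuts a hairpin, and DICER1 then cuts the mature strand of about the length printed here. Bases 2 to 8 of the mature strand, the seed, pair with messenger RNAs that are then silenced. Some hosts are noncoding RNAs whose best known product is the microRNA, and others, such as MCM7 and CLCN5, are protein-coding genes that hold microRNA hairpins in their introns. The arrays read the host RNA and not the mature microRNA. The microRNA arrays of the study were not analysed here, and the level of a host need not run with that of its microRNA.

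MDA-MB435S is a human metastatic melanoma line. WWOX is a tumour suppressor whose WW domains bind other proteins, and the WFPA mutation disrupts the first of these domains. Total RNA was read on 9 Affymetrix U133 Plus 2.0 arrays, 3 for each group. The cells of all groups were stable clones in the same line, grown in DMEM with serum and selected with G418, and carried a lentiviral vector that was empty, held wild-type WWOX, or held WWOX-WFPA. How many clones stood behind a group, and whether the 3 arrays came from separate cultures, is not given in the sources used here, so that p-values measure only the spread between arrays, which may be technical and which cannot be told apart from differences between clones. The vector field of the labels is "none" for the arrays titled as WWOX and wild-type WWOX for those titled as EV, and the EV titles carry the addition wox+. The groups were taken from the titles. WWOX itself, at its brightest probe set 223868_s_at, was at 8.74 to 9.26 in the EV, 10.12 to 10.35 in the WFPA and 10.34 to 10.83 in the WWOX arrays (log2 intensity), so the arrays titled EV were lowest there. The next brightest WWOX probe set, 223747_x_at, ran otherwise, with its highest group mean in the EV arrays (9.11), then the WWOX arrays (8.87) and the WFPA arrays (8.38). At 221147_x_at the means were 4.49 in the EV, 7.64 in the WFPA and 8.18 in the WWOX arrays. In the same order they were 3.91, 5.50 and 5.13 at 219077_s_at, and 5.98, 5.98 and 6.11 at 210695_s_at. In bulk RNA, fewer cells that make a transcript and less of it in each cell cannot be told apart.

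The mature sequences are those of RefSeq (GRCh38.p14), printed 5′ to 3′ with the seed in capitals. They are shown for the hosts that differed between the groups and for those hosts that carry the same seeds, because 4 seeds occurred in 2 of the hosts each. MIR31HG, MIR503HG and CLCN5 come first.
miR-31-5p in MIR31HG (chr9:21512158-21512178, minus strand): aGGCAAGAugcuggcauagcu
miR-503-5p in MIR503HG (chrX:134546371-134546393, minus strand): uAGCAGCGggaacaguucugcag
miR-424-5p across the end of MIR503HG (chrX:134546680-134546701, minus strand): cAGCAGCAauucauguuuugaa
miR-188-3p in CLCN5 (chrX:50003556-50003576, plus strand): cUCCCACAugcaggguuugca
miR-362-3p in CLCN5 (chrX:50009005-50009026, plus strand): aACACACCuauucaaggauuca
miR-362-5p in CLCN5 (chrX:50008968-50008991, plus strand): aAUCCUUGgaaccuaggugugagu
miR-500b-5p in CLCN5 (chrX:50010682-50010699, plus strand): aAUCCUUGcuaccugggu

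MIR100HG and MIR99AHG, on different chromosomes, hold pairs of microRNAs with the same seeds. The seed ACCCGUA is that of miR-100-5p and miR-99a-5p, and the seed GAGGUAG that of the let-7 family.
miR-100-5p in MIR100HG (chr11:122152275-122152296, minus strand): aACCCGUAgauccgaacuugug
miR-99a-5p in MIR99AHG (chr21:16539101-16539122, plus strand): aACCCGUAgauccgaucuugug
let-7a-5p in MIR100HG (chr11:122146568-122146589, minus strand): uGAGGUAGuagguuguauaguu
let-7c-5p in MIR99AHG (chr21:16539838-16539859, plus strand): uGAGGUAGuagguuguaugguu
miR-125b-5p in MIR100HG (chr11:122099809-122099830, minus strand): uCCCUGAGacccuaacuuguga

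MIR17HG and MCM7 likewise share the seeds AAAGUGC and AUUGCAC.
miR-17-5p in MIR17HG (chr13:91350618-91350640, plus strand): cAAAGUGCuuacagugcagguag
miR-20a-5p in MIR17HG (chr13:91351072-91351094, plus strand): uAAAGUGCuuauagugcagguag
miR-106b-5p in MCM7 (chr7:100094043-100094063, minus strand): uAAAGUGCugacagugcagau
miR-92a-3p in MIR17HG (chr13:91351361-91351382, plus strand): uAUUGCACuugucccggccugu
miR-25-3p in MCM7 (chr7:100093571-100093592, minus strand): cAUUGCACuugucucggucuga

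The table held 24 hairpins of these hosts. All 24 lay on the strand of their host, 23 of them within it, with 7 in CLCN5, 6 in MIR17HG, 4 in MIR100HG, 2 each in MIR99AHG, MCM7 and MIR503HG, and 1 in MIR31HG. The microRNAs miR-155, miR-22, miR-93 and miR-125b-2 had no matched entry among the sequences used and are named only. The hairpin counts leave them out, so the count of a host may be too low.

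In WWOX cells 1 probe set of MIR100HG and 1 of the 3 probe sets of the MIR503HG locus fell, and 2 probe sets of CLCN5 rose, against EV and WFPA averaged. The other probe sets of these hosts were not called in that comparison. Against the mean of EV and WFPA cells, which is the study's own comparison, 2 of the 20 probe sets were higher, both of CLCN5, and 2 were lower, 225381_at of MIR100HG and 228235_at of the MIR503HG locus. A difference was called at an adjusted p under 0.05 and at least 2-fold (limma, Benjamini-Hochberg adjustment over all probe sets). Of all probe sets tested, 1.46% were called higher and 1.77% lower in this comparison. These limits are not the study's, whose methods state a 4-fold limit and name the Bonferroni method. At 4-fold 0 of the 20 were called here, beside 412 of all probe sets. With Bonferroni adjustment 1 was called, beside 603 of all. The median difference of the 20 probe sets was 0.10 on the log2 scale, beside 0.03 over all probe sets. Against EV cells alone, 3 were higher and 3 lower, with 1.66% and 1.64% of all probe sets. With WFPA cells as the only control, 2 were higher and 4 lower, beside 1.51% and 2.47% of all. Between WFPA and EV cells 2 were called, both joint probe sets that were higher in WFPA, where 1.26% of all probe sets were higher and 0.474% lower. Without the fold limit 3 of the 20 passed the adjusted p there. The 4 comparisons share arrays and are not independent of each other.

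**Figure D1:**
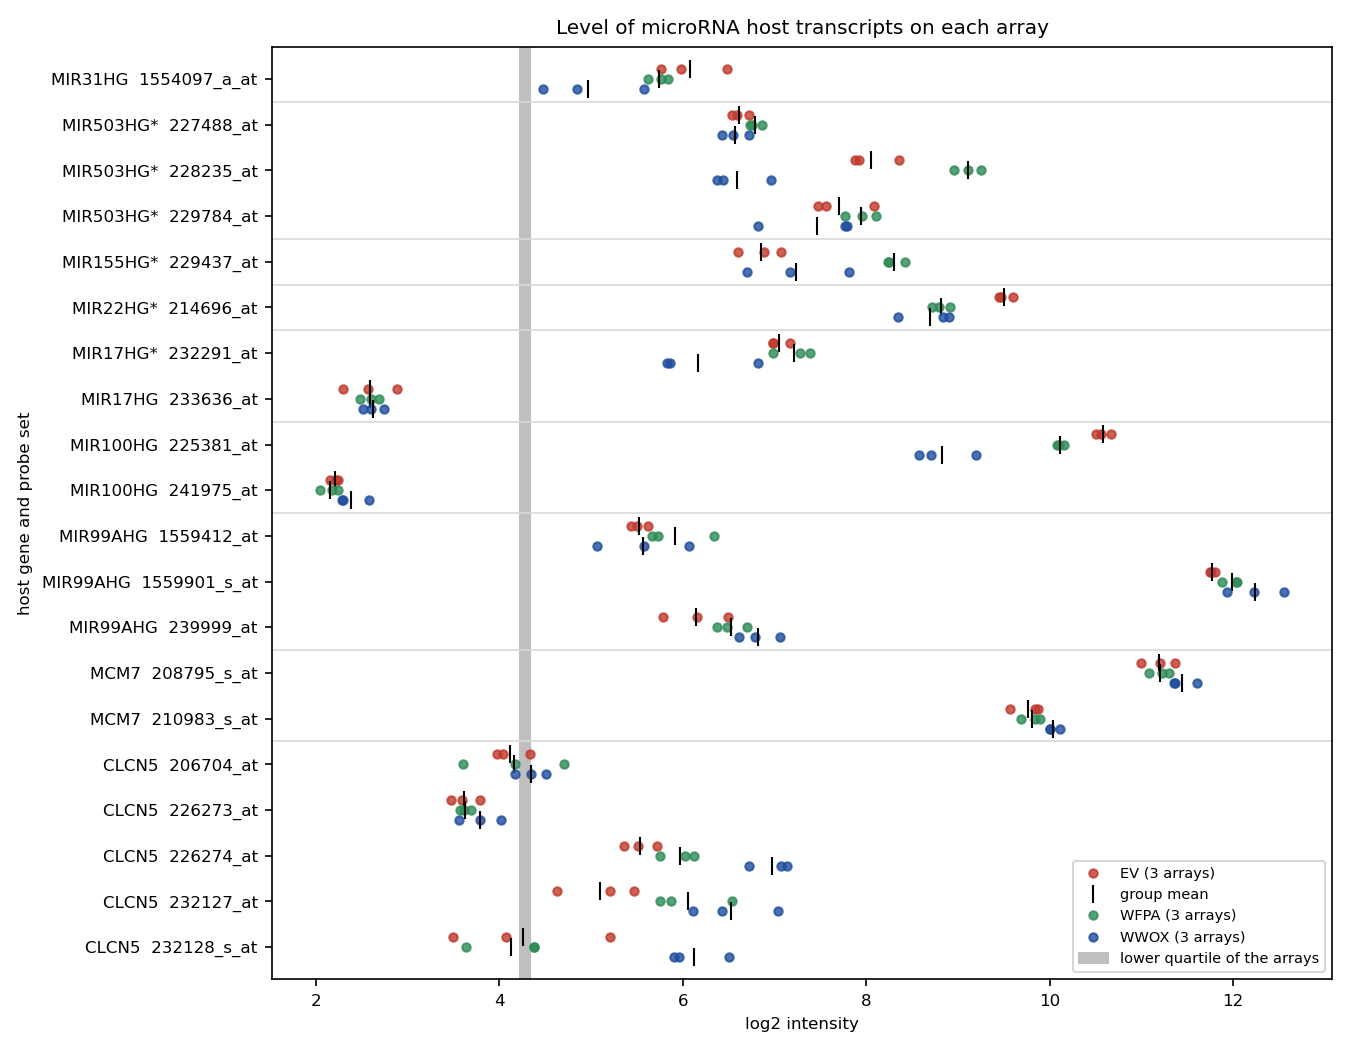
Log2 intensity (x axis) at each of the 20 probe sets of the hosts (y axis), 1 point per array, with a black line at the mean of 3 arrays in EV, WFPA and WWOX cells; an asterisk marks a probe set annotated jointly to a host and its microRNAs, and the grey band spans the lower quartiles of the arrays (4.23 to 4.34). The WWOX arrays lie below all others at MIR100HG 225381_at and MIR503HG 228235_at and above all others at CLCN5 226274_at and 232128_s_at.

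MIR100HG, the noncoding host of miR-100, let-7a and miR-125b, fell in WWOX cells by 2.87-fold at its brighter probe set. This probe set, 225381_at, was at 10.56, 10.50 and 10.67 in the EV arrays, at 10.16, 10.10 and 10.08 in the WFPA arrays and at 9.20, 8.71 and 8.57 in the WWOX arrays (log2 intensity). The 3 groups lay apart, in the order EV, WFPA and WWOX, and the WWOX arrays spread more widely than the others (SD 0.329, n = 3, beside 0.0864 and 0.0420). The log2 difference of WWOX from the mean of EV and WFPA was -1.52 (SE 0.130, limma adjusted p = 8.01e-05). It was -1.75 against EV (limma adjusted p = 1.00e-04) and -1.29 against WFPA (limma adjusted p = 5.50e-04). The difference between WFPA and EV, -0.47, did not pass (limma adjusted p = 0.116). No array, when left out, ended the calls of MIR100HG in the 3 comparisons with WWOX. The other probe set of MIR100HG, 241975_at, was at 2.05 to 2.58 on all 9 arrays, under the lower quartile of each, where the array gives no usable order of groups.

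MIR99AHG holds microRNAs with the seeds of those in MIR100HG, and none of its 3 probe sets was called in any comparison. At 1559901_s_at, whose suffix marks probes shared by several transcripts, the EV arrays had a mean of 11.77 ± 0.0299, the WFPA arrays 11.98 ± 0.0938 and the WWOX arrays 12.24 ± 0.309 (SD, n = 3 each). The difference of WWOX from the mean of the others was 0.36 there, with a 95% interval of 0.0814 to 0.645 (limma adjusted p = 0.0816). At 239999_at the difference from EV was 0.68 (limma adjusted p = 0.0475), under 2-fold. The difference from the mean of the others was 0.49 at that probe set, with a 95% interval of 0.122 to 0.856. At 1559412_at the difference from the mean of the others was -0.15, with a 95% interval of -0.643 to 0.352. The differences of MIR99AHG thus did not run the same way at its 3 probe sets. No fall of the size seen in MIR100HG lay within these 3 intervals.

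The MIR503HG locus yields miR-503 and miR-424, which belong to a seed family known to hold back the cell cycle, and it is covered by 3 joint probe sets that disagreed. The probe set 228235_at, annotated jointly to MIR503HG and MIR424, was at 7.88, 7.92 and 8.36 in the EV arrays, at 9.12, 8.95 and 9.25 in the WFPA arrays and at 6.44, 6.96 and 6.37 in the WWOX arrays. WFPA was highest and WWOX lowest, with no overlap between any pair of groups. The log2 difference of WWOX from the mean of EV and WFPA was -1.99 (SE 0.162, limma adjusted p = 5.75e-05). The difference from EV was -1.46 (limma adjusted p = 0.00116), and that from WFPA was -2.52, or 5.72-fold (SE 0.187, limma adjusted p = 3.62e-05). WFPA cells were 1.06 above EV cells (limma adjusted p = 0.0106). That last difference fell under 2-fold when EV replicate 1 (0.97), EV replicate 2 (0.99) or WFPA replicate 3 (0.98) was left out, and the other 3 calls at this probe set held without any single array.

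The other joint probe sets of the MIR503HG locus were not called in any of the 4 comparisons. At 227488_at the EV arrays had a mean of 6.62 ± 0.0982, the WFPA arrays 6.78 ± 0.0683 and the WWOX arrays 6.57 ± 0.149 (SD, n = 3 each), and the difference of WWOX from the other groups' mean was -0.14 (95% interval -0.337 to 0.0655). At 229784_at WWOX replicate arrays ran from 6.82 to 7.79, and the difference was -0.36 (95% interval -0.885 to 0.156). Over the 9 arrays the 3 probe sets correlated with each other at 0.505 to 0.563, as a description of arrays that share their groups. Which transcript each of the 3 probe sets reads was not tested.

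MIR31HG, the noncoding host of miR-31 and a neighbour of the CDKN2A locus, was lower in WWOX than in EV cells. Its only probe set, 1554097_a_at, was at 6.49, 5.98 and 5.76 in the EV arrays, at 5.62, 5.84 and 5.76 in the WFPA arrays and at 4.85, 4.48 and 5.58 in the WWOX arrays. All WWOX arrays lay below all others, although WWOX replicate 3 (5.58) was close to the lowest WFPA array (5.62). WWOX differed from EV by -1.11, or 2.15-fold (SE 0.272, limma adjusted p = 0.0300). The difference from WFPA was -0.77 (limma adjusted p = 0.0887), and that between WFPA and EV was -0.33 (limma adjusted p = 0.580). Against the mean of EV and WFPA it was -0.94, or 1.92-fold (limma adjusted p = 0.0261), under the fold limit.

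The call of MIR31HG against EV rested on single arrays. It was lost without EV replicate 1 (-0.90), EV replicate 2 (-1.15), WFPA replicate 2 or 3 (-1.11 each), WWOX replicate 1 (-1.05) or WWOX replicate 2 (-0.86). Without WWOX replicate 3 the difference from the mean of EV and WFPA was -1.24 and that from WFPA was -1.08, both called. Without EV replicate 3 the first of these was -1.02 and called.

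MIR17HG is the transcript of the miR-17 cluster, whose microRNAs are known to favour growth, and MCM7 carries microRNAs with the same seeds. The joint probe set 232291_at of MIR17HG and its 6 microRNAs was at 6.99, 6.98 and 7.17 in the EV arrays, at 6.98, 7.28 and 7.38 in the WFPA arrays and at 5.83, 6.82 and 5.86 in the WWOX arrays. The WWOX arrays were all lowest, with WWOX replicate 2 far closer to the other groups than to its own. The difference from the mean of EV and WFPA was -0.96, or 1.95-fold (limma adjusted p = 0.0152), just under the fold limit. Against WFPA it was -1.05 (limma adjusted p = 0.0199) and called, and against EV it was -0.88 (limma adjusted p = 0.0506).

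Leaving out WWOX replicate 2 took the difference at 232291_at from the mean of EV and WFPA to -1.29 and that from EV to -1.20, both called, and leaving out WFPA replicate 1 took the former to -1.02, also called. The call against WFPA was lost without WFPA replicate 2 (-1.01), WFPA replicate 3 (-0.96), WWOX replicate 1 (-0.88) or WWOX replicate 3 (-0.89). The probe set annotated to MIR17HG alone, 233636_at, was under the lower quartile on all 9 arrays, at group means of 2.59, 2.59 and 2.62.

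MCM7, a subunit of the helicase that opens DNA for replication, was bright in all groups and was not called. At 208795_s_at the EV arrays had a mean of 11.19 ± 0.183, the WFPA arrays 11.21 ± 0.109 and the WWOX arrays 11.45 ± 0.139 (SD, n = 3 each). At 210983_s_at it was at 9.77 ± 0.168, 9.81 ± 0.108 and 10.04 ± 0.0675. The differences of WWOX from the mean of the others were 0.25 at both, with 95% intervals of 0.00933 to 0.485 and of 0.0423 to 0.466 (limma adjusted p = 0.148 and 0.101). Both intervals exclude a 2-fold change. Between WFPA and EV the differences were 0.02 and 0.04.

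CLCN5 was the host with probe sets called higher in WWOX cells. It encodes a chloride and proton exchanger of endosomes, known from an inherited disease of the kidney tubule, and its introns hold the cluster with miR-188 and miR-362. Its probe set 226274_at was at 5.51, 5.37 and 5.72 in the EV arrays, at 5.76, 6.13 and 6.02 in the WFPA arrays and at 7.14, 7.07 and 6.72 in the WWOX arrays. The groups lay apart in the order EV, WFPA and WWOX. The log2 difference of WWOX from the mean of EV and WFPA was 1.22, or 2.34-fold (SE 0.131, limma adjusted p = 3.10e-04). They were 1.44 above EV (limma adjusted p = 3.55e-04) and 1.01 above WFPA (limma adjusted p = 0.00218). The difference of 0.43 between WFPA and EV did not pass (limma adjusted p = 0.143).

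The call of 226274_at against WFPA stood at the fold limit. It was lost without WFPA replicate 1 (0.90), WWOX replicate 1 (0.93) or WWOX replicate 2 (0.96), and with each array centred on its median (0.999). A second CLCN5 probe set was 232128_s_at, whose suffix marks probes shared by several transcripts. It was at 4.08, 5.21 and 3.50 in the EV arrays, at 4.38, 4.38 and 3.64 in the WFPA arrays and at 5.96, 5.90 and 6.51 in the WWOX arrays. The WWOX arrays lay above all others, and 3 of the other 6 arrays were under their lower quartile, so the size of the rise is uncertain. The difference from the mean of EV and WFPA was 1.93 (SE 0.348, limma adjusted p = 0.00569), and that from WFPA was 1.99 (limma adjusted p = 0.00973). The difference from EV was 1.86 (limma adjusted p = 0.0171), a call that was lost without EV replicate 1 (1.77) or WWOX replicate 3 (1.67).

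Another CLCN5 probe set, 232127_at, had group means of 5.10, 6.05 and 6.53 in EV, WFPA and WWOX cells. It was 1.43 higher in WWOX than in EV cells (limma adjusted p = 0.0158), a call lost without EV replicate 3 (1.19). WFPA and WWOX arrays overlapped there, with a difference of 0.47 (limma adjusted p = 0.320). Against the mean of EV and WFPA the difference was 0.95 (limma adjusted p = 0.0380), and it was called without EV replicate 2 (1.04), WFPA replicate 2 (1.07) or WWOX replicate 3 (1.16). The remaining CLCN5 probe sets, 206704_at and 226273_at, were under the lower quartile on 5 and on 9 of the 9 arrays, and neither was called.

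At the locus of miR-155 the WFPA arrays stood apart, and at that of miR-22 the EV arrays did. The joint probe set 229437_at of MIR155HG and miR-155, a microRNA best known from activated immune cells, was at 7.07, 6.60 and 6.88 in the EV arrays, at 8.25, 8.42 and 8.24 in the WFPA arrays and at 7.82, 7.17 and 6.70 in the WWOX arrays. The WFPA arrays lay above all others, and the EV and WWOX arrays overlapped. The difference of WFPA from EV was 1.45 (SE 0.247, limma adjusted p = 0.00893), and no left-out array ended that call. WWOX cells differed from WFPA cells by -1.07 (limma adjusted p = 0.0179), and from EV cells by 0.38 (95% interval -0.176 to 0.939). The call against WFPA was lost without WFPA replicate 1 (-1.10), WFPA replicate 2 (-1.02), WFPA replicate 3 (-1.11), WWOX replicate 2 (-1.04) or WWOX replicate 3 (-0.81).

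The joint probe set 214696_at of MIR22HG and miR-22, whose host is known as a stress-responsive transcript, was at 9.45, 9.48 and 9.60 in the EV arrays, at 8.72, 8.80 and 8.91 in the WFPA arrays and at 8.84, 8.35 and 8.90 in the WWOX arrays. EV lay above both other groups, which overlapped each other. The differences from EV were -0.81 in WWOX (limma adjusted p = 0.00724) and -0.70 in WFPA cells (limma adjusted p = 0.0236), both under 2-fold. Between WWOX and WFPA cells the difference was -0.12 (95% interval -0.445 to 0.214).

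**Figure D2:**
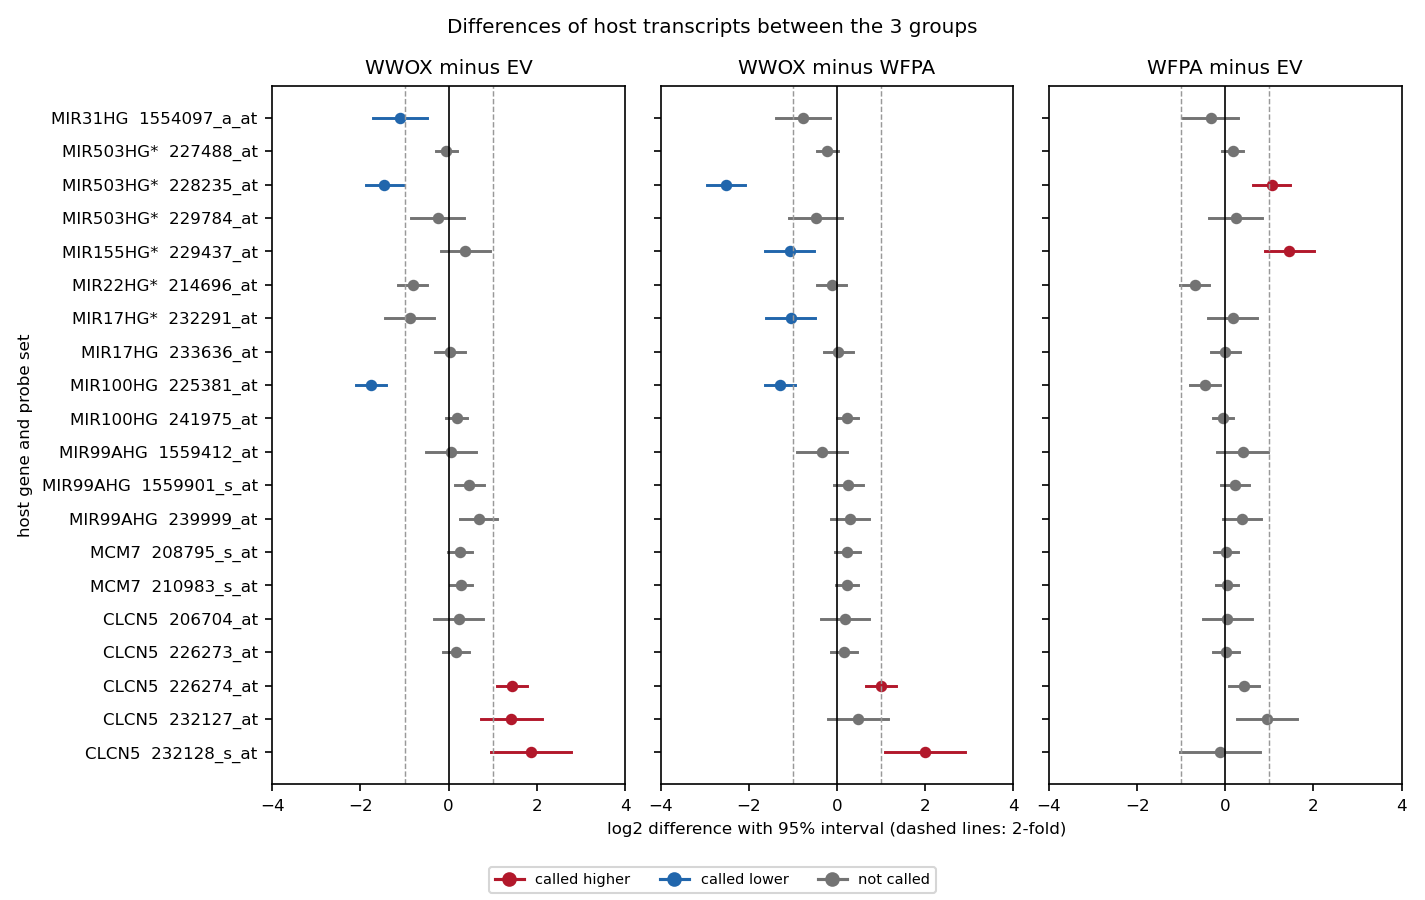
Log2 difference (x axes) of WWOX from EV, of WWOX from WFPA and of WFPA from EV cells at the 20 probe sets of the hosts (y axis), each with its 95% interval from limma; red is called higher, blue called lower and grey not called, an asterisk marks a joint probe set, and dashed lines mark 2-fold. CLCN5 226274_at and 232128_s_at are higher and MIR100HG 225381_at and MIR503HG 228235_at are lower in WWOX cells against both other groups, and MIR155HG 229437_at is called against WFPA and not against EV.

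The genes beside the hosts were read in the same way. For each host the 3 nearest measured genes on each side, and genes that overlap it, were taken from the RefSeq gene order, 57 in all. In the comparison of WWOX with the mean of EV and WFPA, 3 of them were called, all lower, where 1.94% of all 19775 genes were called higher and 2.06% lower. The neighbours' median difference was 0.01. The 3 that fell were PLAC1, the second measured gene after MIR503HG, LINC00515, the next after MIR155HG, and PAGE4, the third before CLCN5.

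PLAC1, a placental gene also found in tumours, was at 9.21, 9.06 and 9.12 in the EV arrays, at 9.74, 9.75 and 9.98 in the WFPA arrays and at 7.89, 7.73 and 7.94 in the WWOX arrays. Its groups had the order of MIR503HG 228235_at, with WFPA highest and WWOX lowest and no overlap. The difference from the mean of EV and WFPA was -1.62 (SE 0.0881, limma adjusted p = 4.66e-06). LINC00629, which lies between them, was at 3.36 to 4.41 on all arrays, and HPRT1, on the other side of MIR503HG, differed by -0.08 (limma adjusted p = 0.459).

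LINC00515 was at 5.24, 5.18 and 5.91 in the EV arrays, at 6.94, 6.54 and 5.68 in the WFPA arrays and at 4.47, 5.21 and 4.91 in the WWOX arrays, and its difference was -1.06 (limma adjusted p = 0.0367). The EV arrays overlapped with both other groups. That call held only with all arrays or without WFPA replicate 3 or WWOX replicate 2, and over the other 7 arrays left out in turn the difference ran from -1.12 to -0.86. In the same comparison NRIP1, a neighbour of MIR99AHG, was called lower only with an array left out. These arrays were EV replicate 3, WFPA replicate 1 or 3, and WWOX replicate 2 or 3 (by up to -1.09). SERPINF1 was called there without EV replicate 1 (-1.03). Against WFPA, NRIP1 was called lower with all arrays (-1.36, limma adjusted p = 0.00577). PAGE4, a cancer-testis family gene, was at 7.33 to 8.02 in EV, 6.83 to 7.53 in WFPA and 5.50 to 5.99 in WWOX cells. It fell (-1.61, limma adjusted p = 6.82e-04) where CLCN5 rose. USP27X, nearest to CLCN5 on the same side, did not pass (limma adjusted p = 0.987).

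No neighbour of MIR31HG or MIR100HG was called in any of the 4 comparisons (limma). MTAP, next to MIR31HG, differed by -0.10 (limma adjusted p = 0.640), CDKN2A, which encodes the p16 protein that MIR31HG is known to restrain, by -0.23 (limma adjusted p = 0.0754), and IFNE, which overlaps MIR31HG, by 0.08. UBASH3B and SORL1, on either side of MIR100HG, differed by 0.07 and 0.18, and BLID, within it, by -0.46 (limma adjusted p = 0.221). In the comparison of WFPA with EV, USP25 beside MIR99AHG was 1.59 higher (limma adjusted p = 0.00752) and SERPINF1 near MIR22HG 2.57 lower, a log2 difference of -2.57 (limma adjusted p = 4.29e-04). SERPINF1 fell in the WWOX cells too (-2.21 against EV, limma adjusted p = 4.89e-04). USP25 was also higher in WWOX than in EV cells (1.23, limma adjusted p = 0.0156), a call lost without EV replicate 1 or 3 or WWOX replicate 2. CXADR, another neighbour of MIR99AHG, was called higher in WWOX than in EV cells (1.04, limma adjusted p = 0.00873). That call was lost without EV replicate 1 or WWOX replicate 1.

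**Figure D3:**
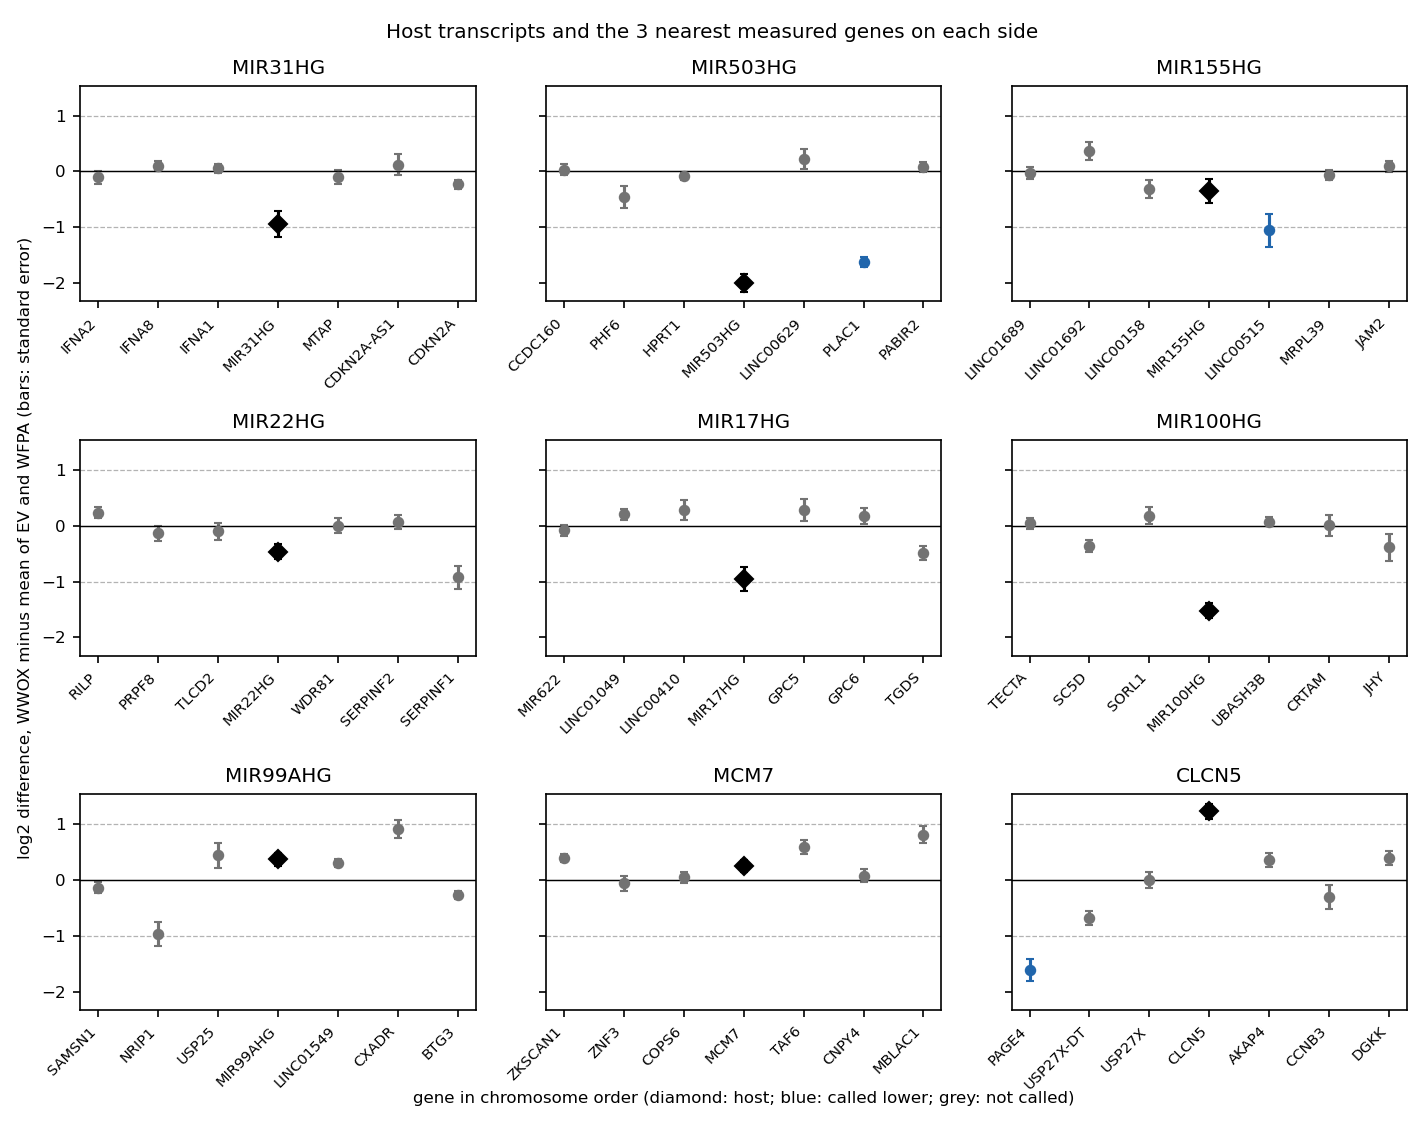
Log2 difference of WWOX from the mean of EV and WFPA cells (y axes, bars are the standard error from limma) for each host (diamond, its brightest probe set) and the 3 nearest measured genes on each side in chromosome order (x axes, not to scale). Blue points are called lower, namely PLAC1 at -1.62, LINC00515 at -1.06 and PAGE4 at -1.61, and grey points are not called.

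The genes whose levels ran most like those of a host over the 9 arrays were found by Pearson correlation over about 19775 genes, as a description with no test, since all arrays share the same 3 groups. For MIR100HG 225381_at they were DNAJB4 (0.996), DIO2 (0.993) and LINC02901 (0.993). For MIR503HG 228235_at they were SFTA1P (0.992), H2BC4 (0.989) and HCP5 (0.989), and for MIR31HG they were RAB11FIP5 (0.950), LINC02274 (0.942) and CHST7 (0.930). For the joint probe set of MIR17HG they were NALCN (0.975), ZNF235 (0.961) and TTBK2 (0.960), and for that of MIR155HG they were CUL5 (0.987), ZKSCAN8 (0.984) and OGT (0.979). For CLCN5 226274_at they were FAM3C (0.987), SNX10 (0.985) and RCHY1 (0.982), while the other CLCN5 probe sets correlated with 226274_at at 0.354 to 0.776.

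Other microRNA hosts and related genes are set beside all 19775 genes, of which 1.94% were called higher and 2.06% lower, 35.3% had an unadjusted p under 0.05 and 20.3% an adjusted p under 0.05 in WWOX cells against both controls averaged. Of 17 other noncoding hosts measured, among them DLEU2, MEG3 and MIR210HG, 0 were called (limma), with 6 (35.3%) at an unadjusted p under 0.05 and a median difference of 0.15. The median over all genes was 0.04. MIR210HG, the host of the hypoxia microRNA miR-210, was 0.64 higher (limma adjusted p = 0.0116), and LINC-PINT, a p53-induced noncoding RNA, differed by -0.56 (limma adjusted p = 0.00944), both under 2-fold. Of 53 other protein-coding hosts 1 was called. DNM3, a dynamin whose gene carries miR-199 and miR-214 on its opposite strand, was at 5.33 to 5.75 in the EV, 4.76 to 5.47 in the WFPA and 6.09 to 6.70 in the WWOX arrays. Its WWOX arrays lay above all others, by 1.12 on average (limma adjusted p = 0.00386), and by 0.99, under 2-fold, without WWOX replicate 3. DNM3OS, the noncoding host on that opposite strand, was not called (0.29, limma adjusted p = 0.0785). It was at 3.01 to 3.65, under the lower quartile of the arrays. FTX, a noncoding host, was called only without WWOX replicate 1 (-1.65), and so was ARRB1 (1.04), a coding host.

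Among 31 genes that process microRNAs or carry out silencing, 0 were called (limma), with 12 (38.7%) at an unadjusted p under 0.05 and 6 (19.4%) at an adjusted p under 0.05, beside 35.3% and 20.3% of all genes. Of those 6, DROSHA (-0.44, limma adjusted p = 0.0127), XPO5, RAN, CNOT1 and XRN2 were lower and AGO4 was higher. DROSHA, which makes the first cut, was at 11.08 to 11.48 in EV, 11.23 to 11.32 in WFPA and 10.83 to 10.85 in WWOX cells. DICER1 differed by -0.12 and AGO2, the slicing Argonaute protein, by 0.14, and neither passed (limma adjusted p = 0.398 and 0.533).

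Relatives of the coding hosts were set beside them. Of 25 genes of the MCM helicase and of origin licensing, 0 were called (limma), with a median difference of -0.03. An unadjusted p under 0.05 was found for 9 (36.0%), beside 35.3% of all genes. MCM2 was 0.65 higher (limma adjusted p = 0.00239) and MCM4 0.42 higher (limma adjusted p = 0.00320), while MCM3, MCM5 and MCM6 differed by 0.04, 0.26 and -0.09 without passing. Of 7 genes of the CLC chloride channels and exchangers and their partners, 0 were called (limma), with 3 (42.9%) at an unadjusted p under 0.05. These 3 were CLCN3 (0.52, limma adjusted p = 0.00702), CLCN7 (0.53, limma adjusted p = 0.0202) and its partner subunit OSTM1 (0.43, limma adjusted p = 0.00475). CLCN1 and CLCN6 differed by 0.12 and -0.04. CLCN4, an endosomal exchanger close to CLCN5 in sequence, was at 7.29 to 8.05 in the WFPA arrays, above EV (5.53 to 6.53) and WWOX (5.34 to 6.86), and was called lower in WWOX than in WFPA cells (-1.46, limma adjusted p = 0.0338). That call was lost without EV replicate 1, any WFPA replicate, WWOX replicate 1 or WWOX replicate 3, with differences from -1.63 to -1.04.

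Of 21 transcription factors known to act on these hosts, MYC was called lower and FOS higher in WWOX cells against the mean of EV and WFPA. Of all genes 1.94% were called higher and 2.06% lower. At an adjusted p under 0.05, 3 of the list were higher and 4 lower (33.3%, beside 20.3% of all genes). The median difference of the list was -0.10. MYC, known to bind and activate the MIR17HG promoter, was at 9.94, 10.13 and 9.59 in the EV arrays, at 9.79, 9.55 and 9.78 in the WFPA arrays and at 8.68, 8.67 and 8.81 in the WWOX arrays. Its WWOX arrays lay below all others, by -1.08 (SE 0.123, limma adjusted p = 4.58e-04), and against WFPA the difference of -0.99 was just under 2-fold. E2F1 and E2F2, which are also known to act on MIR17HG and on MCM7, were 0.68 and 0.41 higher (limma adjusted p = 0.00185 and 0.00757). FOS was at 4.73 on each EV array, at 4.49 to 4.63 in WFPA and at 5.33 to 6.24 in WWOX cells (difference 1.07, limma adjusted p = 0.00294, and 0.81 without WWOX replicate 3, no longer called). Against the mean of EV and WFPA, GATA6 (-1.02) and SP1 (-1.37) were called only without WWOX replicate 1. Against WFPA, GATA6 was called lower with all arrays, a call lost without WWOX replicate 3 (-0.92). Whether these factors had a part in the host levels was not tested.

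Messenger RNAs known as targets of the hosted microRNAs were counted in lists for each microRNA, and genes may stand in several. Called in WWOX cells against the mean of EV and WFPA cells were 0 of 9 targets of miR-31, 0 of 10 of miR-503, 0 of 11 of miR-155, 0 of 19 of the miR-17 and miR-106b clusters, and 0 of 8 of miR-99a and miR-100 (limma), with 5, 3, 5, 5 and 3 at an unadjusted p under 0.05. Their medians lay between -0.11 and 0.17. Of 9 targets of miR-22, 3 were higher, namely CDK6 (1.14), HDAC4 (1.08) and MECOM (1.01). HDAC4 was under 2-fold without WWOX replicate 2 (0.90), and MECOM without EV replicate 3 (0.98), WFPA replicate 2 (0.99) or WWOX replicate 1 (0.96). Of 13 targets of let-7, CDK6 was higher and MYC lower, and of 11 targets of miR-125b, IRF4 (3.14, limma adjusted p = 2.40e-06) and ERBB3 (1.14, limma adjusted p = 1.12e-04) were higher. The lists of miR-22, let-7 and miR-125b had medians of 0.05, 0.0026 and 0.05, with 6, 5 and 4 genes at an unadjusted p under 0.05 (limma). Of all genes 1.94% were called higher and 2.06% lower, and 35.3% had an unadjusted p under 0.05.

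IRF4, a transcription factor of lymphoid and pigment cells, had a mean of 5.18 ± 0.143 in the EV, 5.37 ± 0.1 in the WFPA and 8.41 ± 0.38 in the WWOX arrays (SD, n = 3 each). Its WWOX arrays lay above all others. ERBB3, a receptor of the EGF receptor family, was at 8.32 to 8.69, 9.03 to 9.10 and 9.75 to 10.05 in EV, WFPA and WWOX cells. CDK6, a kinase of the cell cycle, was at 7.49 to 7.94, 8.83 to 9.17 and 9.40 to 9.60, and its WFPA arrays were also above EV (1.25, limma adjusted p = 9.83e-04). In WFPA against EV cells the miR-503 target VEGFA was 1.22 higher and CCN2, a target of the miR-17 cluster, 2.84 higher (limma adjusted p = 2.62e-04 and 1.03e-05).

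**Figure D4:**
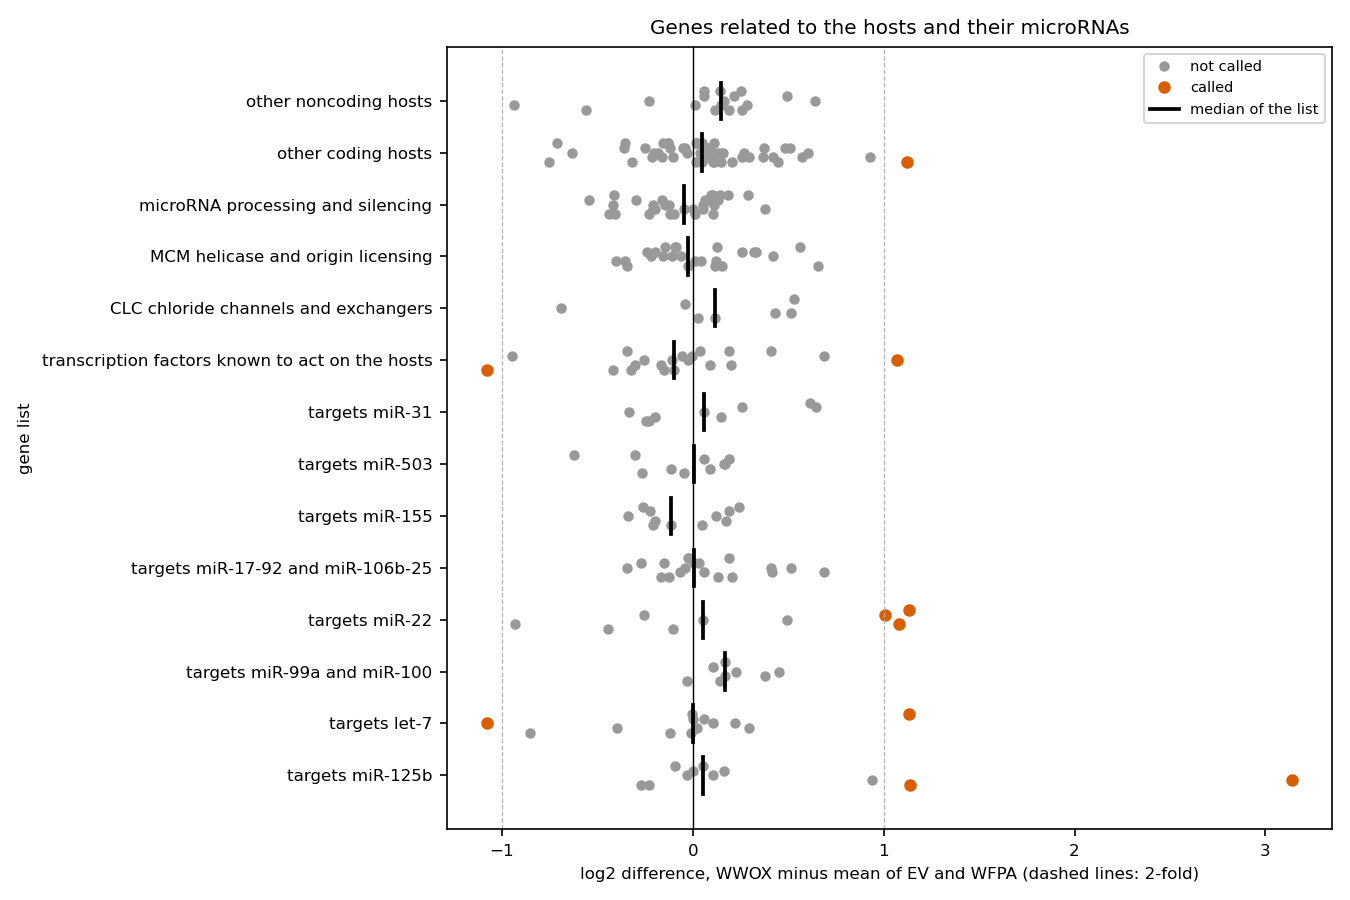
Log2 difference of WWOX from the mean of EV and WFPA cells (x axis) for each measured gene of 14 lists (y axis), with orange points for called genes, grey points for genes not called, a black line at the median of each list and dashed lines at 2-fold. Most genes lie between the dashed lines, and IRF4, among the targets of miR-125b, lies farthest out at 3.14.

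Markers of cell types also moved between the groups. Of 9 melanocyte markers 4 were higher in WWOX cells (MITF, SOX10, S100B and S100A1) and 5 were not called, with a median difference of 0.31. The median level of the list ran from 5.46 to 5.75 over the EV, 5.72 to 6.22 over the WFPA and 9.91 to 10.31 over the WWOX arrays. With 9 genes that median is the level of 1 gene, so it does not give the change of the list as a set. MLANA and TYRP1, which define pigmented melanocytes, had group means of 4.38 to 4.43 and 2.21 to 2.31, near or under the lower quartile, in all groups of this melanoma line. Of 10 epithelial markers 1 was higher and 3 lower, of 10 fibroblast markers 3 were higher, and of 7 haematopoietic markers 2 were lower. Their median differences were -0.05, 0.10 and 0.04, beside 0.04 over all genes, of which 1.94% were called higher and 2.06% lower. Of 11 reference genes 0 were called (limma, with 3 at an unadjusted p under 0.05). The part of such differences between the cells in the levels of the hosts was not tested.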

How the data were processed

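Total RNA was read on 9 Affymetrix U133 Plus 2.0 arrays, 3 per group. The authors deposited log2 intensities of 54675 probe sets from Partek Genomics Suite. The method of background correction and normalization is not given in the sources used here, and neither is a background level, so changes to or from levels under the lower quartile of an array (4.23 to 4.34, with medians of 6.03 to 6.05) are of uncertain size. No further normalization was applied. The 62 array controls were left out. Group means were fitted over all 54613 probe sets with limma 3.58.1 under R 4.3.3, with 6 residual and 3.04 prior degrees of freedom, and p-values were adjusted after Benjamini-Hochberg. Probe sets were called at an adjusted p under 0.05 and at least 2-fold. Precision is limited by the 9 arrays. The scripts were tested on simulated data.

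Probe sets carried 1 gene (41091), several (1801) or none (11721) in the platform annotation, which can be old, and 41037 of those with 1 gene matched the RefSeq table. For lists and neighbours, the probe set with the highest mean stood for a gene. The members and gene lists were chosen with earlier results of these data known. Named genes were all hosts at every probe set, up to 3 called genes with the largest difference in each list, the MCM and CLC families, DROSHA, DICER1, AGO2, MYC, the nearest genes beside a host, and the 3 genes most like a host with a call. CDKN2A, PLAC1, PAGE4, SERPINF1, the other genes with values in lists where 0 were called, and the targets named for WFPA were named after their values were seen. Alternatives were an ordinary one-way model, limma-trend, Bonferroni adjustment, no fold limit, a 4-fold limit, median centring, quantile normalization, a filter on dim probe sets, a block by replicate number, EV and WFPA fitted together, other probe sets per gene, and leaving out each array. Tables and figures used Python 3.11.15 with pandas 2.3.3, numpy 2.4.6 and, for drawing, matplotlib 3.10.9.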

Additional observations from a re-analysis of the deposited data

How the results depend on the processing

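No called difference of a host probe set changed its direction under the alternatives run, and those not called were not followed. Of the 20 host probe sets, 4 were called against the mean of EV and WFPA, 6 against EV, 6 against WFPA and 2 between WFPA and EV. With Bonferroni adjustment these counts were 1, 0, 1 and 0, and at 4-fold they were 0, 0, 1 and 0, the calls left being those of MIR503HG 228235_at, against the mean of EV and WFPA and against WFPA with Bonferroni adjustment, and against WFPA at 4-fold. Without a fold limit the first count was 8, and with the ordinary one-way model the second was 3. Leaving out 1 array at a time gave 1 to 2 calls between WFPA and EV. Of 273 genes in the lists, markers and reference genes included, 21 were called, beside 12 with Bonferroni adjustment, 66 without a fold limit and 8 at 4-fold. Of the 57 neighbours 3 were called, beside 1, 14 and 0, and 2 to 4 with 1 array left out. Over all probe sets, 1766, 1798, 2173 and 946 were called in the 4 comparisons, 603, 507, 564 and 204 with Bonferroni adjustment, 8922, 6463, 8885 and 3627 without a fold limit, and 412, 463, 512 and 183 at 4-fold.

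The replicate numbers of the titles did not pair the arrays, since the deviations of same-numbered arrays from their group means correlated at -0.0521 to 0.0348. With the replicate block, 4, 5, 6 and 2 host probe sets were called, and MIR31HG against EV was lost (adjusted p = 0.0561 from limma, beside 0.0300 without the block). The few arrays, and host probe sets under the lower quartile, limit what can be seen.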
